A study of Homo sapiens with 22 samples.

Results

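JHOC5 is an established cell line of ovarian clear cell carcinoma, and 2 groups of its arrays were set directly against each other: 3 arrays of cells infected with SPINK1 knockdown lentivirus #9 and 3 arrays of cells infected with IL-6 knockdown lentivirus #58. These 6 arrays were chosen by their titles from 22 in the series. The 5 arrays of JHOC5 cells that received the NT control lentivirus are not in the contrast and entered only the estimate of the spread and a set of levels given beside it. The same contrast in a further line of this carcinoma, JHOC9, also has 3 SPINK1 knockdown and 3 IL-6 knockdown arrays, with 5 NT arrays. All cells were thus infected with a lentivirus. JHOC5 was kept in 10% and JHOC9 in 20% serum. Each target gene was knocked down with 1 virus, so a response to the target and any other response to that virus cannot be told apart.

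SPINK1 encodes a secreted inhibitor of trypsin, best known from the pancreas and also made by several carcinomas. IL-6 encodes a secreted cytokine that binds the IL-6 receptor and the shared subunit gp130, and passes its signal on through JAK kinases and the transcription factor STAT3. Knockdown viruses of this kind make cells express a short hairpin RNA that lowers the messenger RNA of the target. On the array, a transcript cluster is a group of probes that together measure 1 transcribed region. The files identify clusters by ID and do not pair the IDs with genes. SPINK1 and IL-6 levels, cell type markers and pathway lists were therefore not analysed here, and the text names clusters by ID.

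Each array gave a log2 signal for 65526 clusters, with array medians between 4.79 and 4.90 on the 6 arrays compared. The median SD of a cluster was 0.091 over the SPINK1 arrays, 0.117 over the IL-6 arrays and 0.096 over the NT arrays of JHOC5. Titles of NT arrays name a separate experiment for each replicate letter, and those of knockdown arrays give a letter alone. For the knockdown arrays it is thus unstated whether replicates are separate cultures, the p-values rest on array-to-array spread that may be technical, and precision is limited by how few arrays there are. SPINK1 arrays carry letters c, d and e, and IL-6 arrays a, b and c. If these letters also mark experiments, the main contrast cannot tell virus and experiment apart beyond letter c. RNA came from whole cultures, so fewer cells of a kind and less RNA per cell cannot be told apart. The root mean square difference between 2 arrays, taken over all clusters on the log2 scale, was 0.176, 0.188 and 0.222 for the 3 pairs of SPINK1 arrays. It was 0.170, 0.243 and 0.275 for the 3 pairs of IL-6 arrays. The 2 larger of these both involve IL-6 replicate a, which stood apart from replicates b and c. The 9 pairs of a SPINK1 and an IL-6 array lay between 0.215 and 0.317, with a median of 0.273, so arrays of different viruses were not always farther apart than arrays of the IL-6 virus.

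The question of the contrast is which transcripts differ between cells with the SPINK1 virus and cells with the IL-6 virus. In JHOC5, 3914 clusters differed at a limma adjusted p under 0.05, which is 5.97% of all clusters tested. Of these, 1805 (2.75%) were higher and 2109 (3.22%) lower with the SPINK1 virus. An unadjusted p under 0.05 was reached by 9211 clusters (14.1%). The falls were also larger. Of the called clusters, 1267 (1.93%) changed by 1.5-fold or more, 433 (0.661%) higher and 834 (1.27%) lower. A change of 2-fold or more was found for 347 (0.53%), 70 (0.107%) higher and 277 (0.423%) lower. Over the lower clusters the median log2 change was -0.50, with quartiles of -0.75 and -0.38. Over the higher clusters it was 0.41, with quartiles of 0.33 and 0.57. The median over all clusters was 0.02. The excess of lower over higher calls varied with the setting. It was larger with the replicate letter as a block (1197 higher, 1995 lower) and with each array centred on its median (1141 higher, 1850 lower). It was absent in the fit without JHOC5 IL-6 replicate c and in the fit with array weights. Without IL-6 replicate c, 1465 clusters were higher and 1455 lower, and with array weights 4159 were higher and 3959 lower. Those weights were uneven, at 3.28 for IL-6 replicate b against 0.319 and 0.757 for a and c.

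**Figure D1:**
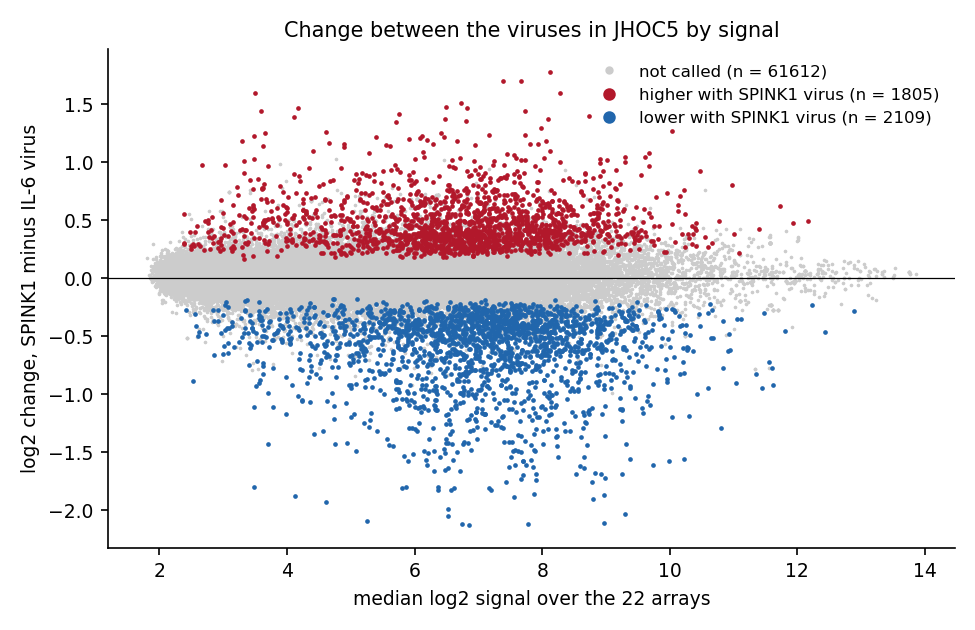
Log2 change in JHOC5 (SPINK1 minus IL-6 virus, 3 arrays each) of each cluster against its median log2 signal over the 22 arrays. Red points are the 1805 higher and blue points the 2109 lower clusters at an adjusted p under 0.05, and grey points did not pass. Falls beyond -1 are more frequent than rises beyond 1.

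All 3 SPINK1 arrays lay outside the range of the 3 IL-6 arrays for 11279 clusters, or 17.2% of those tested, where chance gives 10%. In 6448 (9.84%) the SPINK1 arrays were above and in 4831 (7.37%) below. Above and below thus stood in the opposite order to the called clusters, of which more were lower. Among the called clusters this held for 2075 of the 2109 lower and 1772 of the 1805 higher ones, as their choice favours.

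The largest falls with the SPINK1 virus were in TC04001436.hg.1 and TC04002654.hg.1. TC04001436.hg.1 had log2 signals of 5.60, 5.02 and 4.87 on SPINK1 arrays c, d and e, against 7.11, 7.36 and 7.41 on IL-6 arrays a, b and c. The lowest IL-6 array lay above the highest SPINK1 array by more than the range of either group. Its log2 change was -2.13 ± 0.16 (pooled SE, 3 against 3 arrays), a 4.38-fold fall, with a limma adjusted p of 3.13e-08. This SE, like every SE given here, uses a spread pooled over all arrays of both lines, including NT. For this cluster, the SD of the compared JHOC5 arrays alone was 0.39 (SPINK1) and 0.16 (IL-6). On the NT arrays the cluster lay between 7.07 and 7.49, a range that holds all 3 IL-6 arrays.

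TC04002654.hg.1 had log2 signals of 6.38, 5.87 and 5.62 on SPINK1 arrays c, d and e, against 7.89, 8.15 and 8.20 on IL-6 arrays a, b and c. Its log2 change was -2.12 ± 0.18 (pooled SE, 3 against 3 arrays), with a limma adjusted p of 1.94e-07. The levels of these 2 clusters moved together over the 22 arrays, with a correlation of 0.992, and in both SPINK1 array c was the highest of its group. Whether they share probes or sequence was not tested, so they are not counted as separate evidence.

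The largest rises were in TC12001705.hg.1 and TC05002316.hg.1. TC12001705.hg.1 had log2 signals of 7.44, 7.55 and 7.84 on SPINK1 arrays c, d and e, against 5.69, 5.83 and 5.96 on IL-6 arrays a, b and c. The NT arrays lay between these groups, from 6.49 to 7.18, and overlapped neither. Its log2 change between the viruses was 1.78 ± 0.14 (pooled SE, 3 against 3 arrays), with a limma adjusted p of 8.14e-08. TC05002316.hg.1 had 7.47, 7.45 and 7.38 on the SPINK1 arrays, against 5.28, 5.95 and 5.98 on the IL-6 arrays. Here the SPINK1 arrays were nearly alike while IL-6 array a was lower than the other 2, and the NT arrays, from 5.71 to 6.39, overlapped the IL-6 arrays. Its log2 change was 1.70 ± 0.22 (pooled SE, 3 against 3 arrays), with a limma adjusted p of 2.87e-05. All 4 clusters kept their call in each of 36 alternative settings. With the compared groups alone in the fit, their limma adjusted p was weaker, between 0.0017 and 0.00418.

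**Figure D2:**
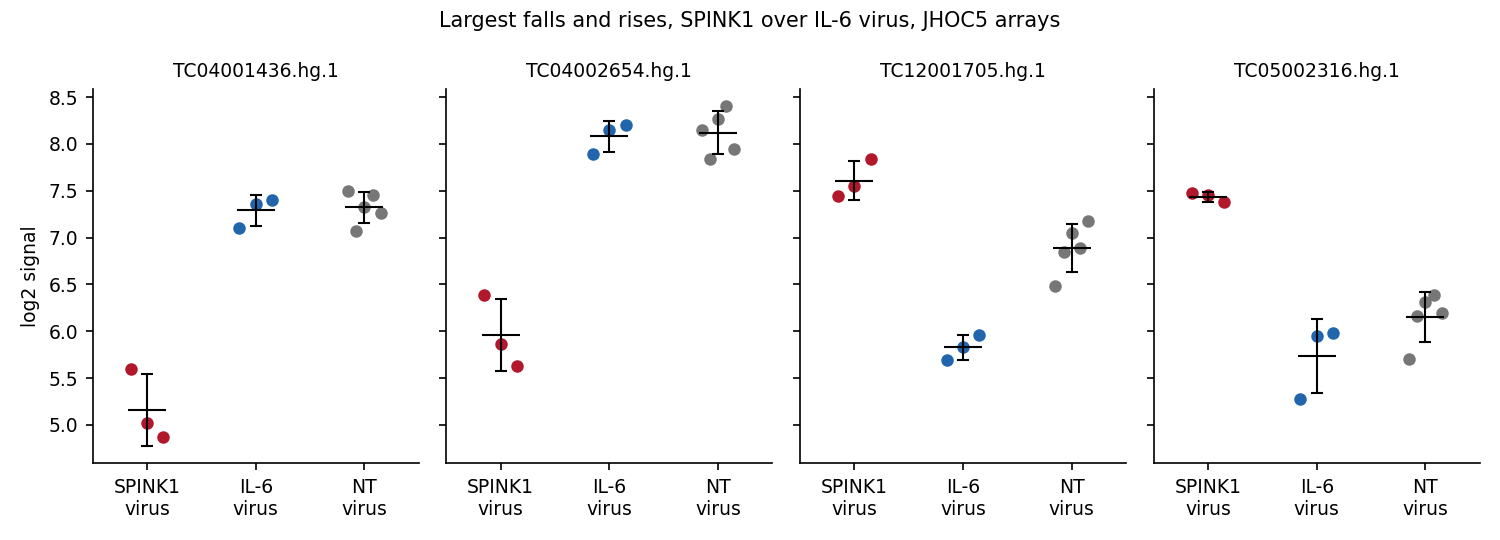
Log2 signal of the 2 clusters with the largest fall and the 2 with the largest rise, on each JHOC5 array with the SPINK1 virus (3 arrays), the IL-6 virus (3) and the NT virus (5). Points are arrays, and bars are the mean ± SD of a group. The SPINK1 arrays stand apart from the IL-6 arrays in each panel, and the IL-6 and NT arrays overlap in each panel but that of TC12001705.hg.1.

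NT arrays show on which side the 2 knockdown groups lay. Over the 2109 lower clusters, the median log2 difference from NT was -0.44 with the SPINK1 virus (quartiles -0.71 and -0.28) and 0.06 with the IL-6 virus (quartiles -0.04 and 0.16). Over the 1805 higher clusters it was 0.26 with the SPINK1 virus (quartiles 0.14 and 0.39) and -0.15 with the IL-6 virus (quartiles -0.31 and -0.05). The lower clusters therefore lay far from NT mainly on the SPINK1 arrays, while the higher ones lay away from NT on both sides. In the 277 clusters that were at least 2-fold lower, the medians were -1.21 with the SPINK1 virus and 0.04 with the IL-6 virus. In the 70 that were at least 2-fold higher, they were 0.62 and -0.55 in the same order. Both differences use the same NT arrays, and the clusters were chosen on the knockdown arrays, so these values are a description with no test.

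The called clusters did not behave the same on each array of a group. Over the lower clusters, the median log2 difference from the NT mean was -0.36, -0.50 and -0.51 on SPINK1 arrays c, d and e, against -0.01, 0.05 and 0.14 on IL-6 arrays a, b and c. SPINK1 array c was the nearest to NT of its group. Over the higher clusters it was 0.24, 0.26 and 0.27 on SPINK1 arrays c, d and e, against -0.24, -0.12 and -0.13 on IL-6 arrays a, b and c. Here the SPINK1 arrays were close to each other, and IL-6 array a was the farthest below NT.

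**Figure D3:**
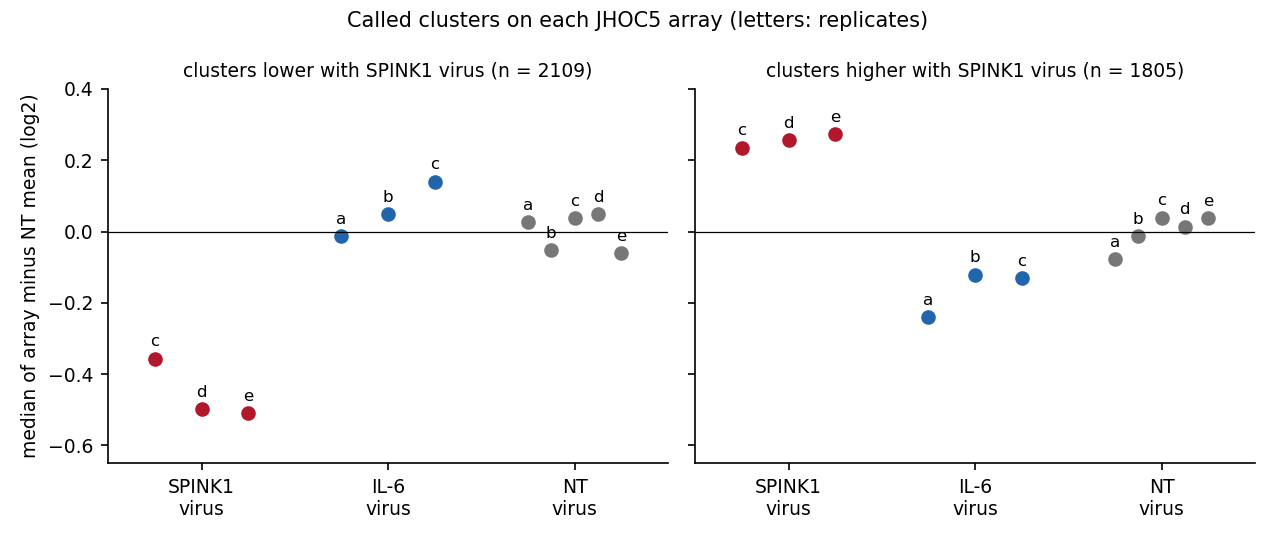
Median over the clusters lower (left) or higher (right) with the SPINK1 virus of the array's log2 signal minus the NT mean, for each JHOC5 array, with replicate letters above the points. Lower clusters sit at -0.36 to -0.51 on SPINK1 arrays and near 0 on IL-6 and NT arrays, and higher clusters sit above 0 on SPINK1 arrays and below 0 on IL-6 arrays.

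Replicate letter c is the only one that the 2 groups share. A fit without both c arrays called 1174 higher and 1491 lower clusters, and the c arrays, which took no part in those calls, were then compared with each other. The SPINK1 c array was below the IL-6 c array for 1477 of the 1491 lower clusters, or 99.1%, against 40.9% of the clusters not called. The median log2 difference of the c arrays over the lower clusters was -0.57, where the other arrays gave -0.62. For the higher clusters, the SPINK1 c array was above in 1135 of 1174, or 96.7%, against 59.1% of the clusters not called. Their median difference was 0.38, where the other arrays gave 0.52. The clusters are not independent of each other, and 1 pair of arrays has no replicate check.

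The share of clusters called rose with signal. When all clusters were ranked by their median signal over the 22 arrays and cut into 5 equal parts, 0.366% of the dimmest part were higher and 0.206% lower with the SPINK1 virus. In the brightest part, with log2 signals from 6.67, 7.57% were higher and 9.90% lower. The brightest part held 992 of the 1805 higher and 1297 of the 2109 lower clusters. The median signal was 6.83 for the higher and 7.08 for the lower clusters, against 4.72 for the clusters not called. In dim clusters an array signal understates a change, so a low share there does not show that such transcripts were alike with the 2 viruses.

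The next question is whether the viruses differed in the same transcripts in JHOC9, where no array is shared with JHOC5. There the contrast called 412 clusters (0.629%), of which 332 (0.507%) were higher and 80 (0.122%) lower with the SPINK1 virus. An unadjusted p under 0.05 was reached by 8978 (13.7%), and the groups did not overlap for 10145 (15.5%). Fitting the compared groups alone by limma gave 0 calls (6623 at an unadjusted p under 0.05), and adding the replicate letter as a block gave 88 (60 higher, 28 lower). The excess of higher calls was small without IL-6 replicate b, at 149 higher and 123 lower, and turned with array weights, at 3061 higher and 4428 lower. Those weights gave SPINK1 replicate b 6.46, against 0.594 and 0.419 for a and c. In both lines 155 clusters were higher and 38 lower, which together are 4.93% of the JHOC5 calls and 46.8% of the JHOC9 calls, and 3 were called in opposite directions. These calls use 1 spread per cluster from all arrays. With each line fitted on its own arrays, 3608 clusters were called in JHOC5 and 42 in JHOC9. Of those, 24 were higher and 9 lower in both, which is 0.915% of the JHOC5 list and 78.6% of the JHOC9 list. With the replicate block 59 clusters were shared, and with the compared groups alone none. The shared calls varied with the JHOC9 arrays in the fit. The 193 in all became 60 without SPINK1 replicate a and 77 without SPINK1 replicate b. They became 116 without IL-6 replicate b and 76 without IL-6 replicate e. Leaving out the same arrays in that order gave 101, 115, 272 and 115 calls in JHOC9. Without SPINK1 replicate c or IL-6 replicate d, 182 and 198 clusters were shared. Each such fit also has fewer arrays in a group.

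Among falls called in both lines, TC04001745.hg.1 was the one whose smaller change of the 2 lines was largest. Its log2 signals in JHOC5 were 5.41, 5.39 and 5.56 on SPINK1 arrays c, d and e, against 7.01, 6.90 and 6.88 on IL-6 arrays a, b and c. In JHOC9 they were 6.06, 6.01 and 5.998 on SPINK1 arrays a, b and c, against 6.84, 7.30 and 7.31 on IL-6 arrays b, d and e. The groups did not overlap in either line. The log2 changes were -1.48 ± 0.14 in JHOC5 and -1.12 ± 0.14 in JHOC9 (pooled SE, 3 against 3 arrays). Their limma adjusted p were 7.84e-07 and 8.22e-04. The test of the difference between the lines gave a limma adjusted p of 0.45.

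By the same measure, TC05001590.hg.1 led the rises called in both lines. Its log2 signals in JHOC5 were 8.03, 8.27 and 8.34 on the SPINK1 arrays, against 6.75, 6.86 and 6.62 on the IL-6 arrays. In JHOC9 they were 6.80, 6.86 and 6.92 on the SPINK1 arrays, against 6.27, 6.14 and 5.78 on the IL-6 arrays. Again no SPINK1 array fell within the IL-6 range. The log2 changes were 1.47 ± 0.13 in JHOC5 and 0.79 ± 0.13 in JHOC9 (pooled SE, 3 against 3 arrays). Their limma adjusted p were 2.54e-07 and 0.00602, and that of the difference between the lines was 0.0591. That difference passed in 6 of 36 settings and missed in 30. Among those that passed was the replicate block, with a difference of 0.82 and a limma adjusted p of 0.00279.

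Over all 65526 clusters, the SPINK1 minus IL-6 changes in JHOC5 and JHOC9 were only weakly correlated (Pearson r 0.092). Higher and lower clusters of JHOC5 looked different on the JHOC9 arrays. In JHOC9 the change was positive for 81.9% of the 1805 higher clusters and negative for 50.8% of the 2109 lower ones, where 36.1% and 63.9% of the clusters not called in JHOC5 were positive and negative. Since the median JHOC9 change also moved with signal, clusters of like signal were set side by side. In the brightest part, the JHOC9 change was positive for 93.6% of the higher, 55.1% of the lower and 58.4% of the clusters not called. The medians were 0.22, 0.02 and 0.04 on the log2 scale in the same order. In this part, the higher clusters had positive changes in JHOC9 more often than clusters not called, in each of 37 settings. For the lower clusters the gap depended on the setting, with 40.9% against 57.7% of clusters not called under the replicate block and 64.1% against 58.4% with array weights. Dimmer parts gave other orders. In the second brightest, 76.8% of the higher, 42.8% of the lower and 31.02% of the clusters not called were positive, and in the dimmest, which held few calls, 35.4%, 48.1% and 41.7%. Over the same settings the share in the brightest part lay between 85.7% and 97.4% for the higher, 40.9% and 69.1% for the lower, and 49.9% and 72.7% for the clusters not called. This comparison was chosen after the data were seen and has no test.

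**Figure D4:**
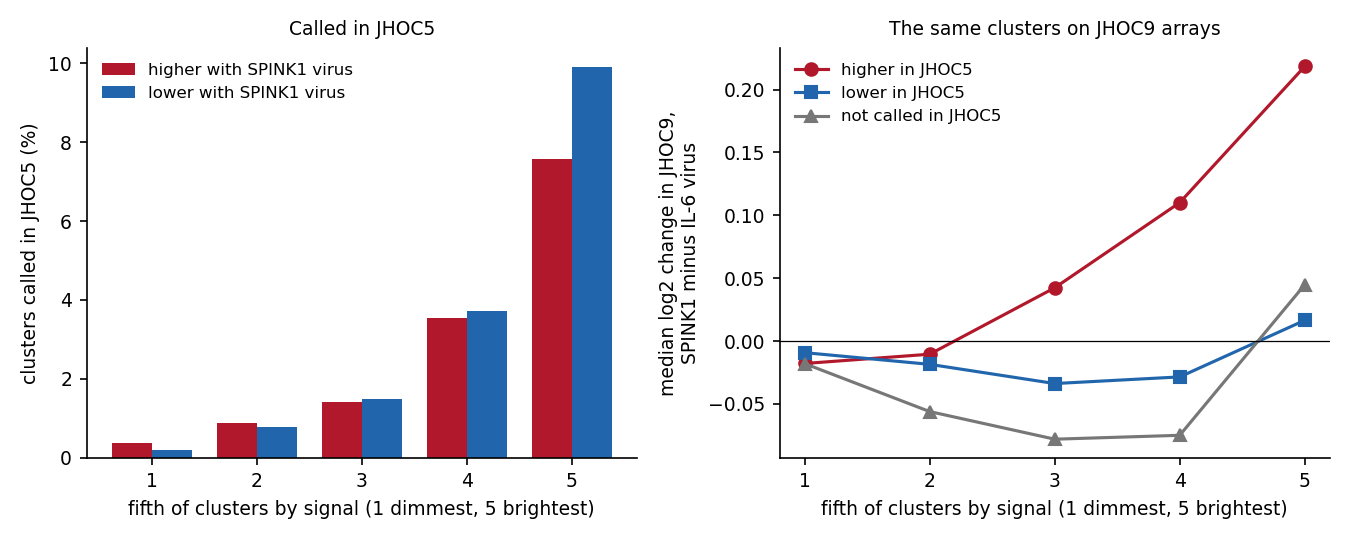
Left, percent of clusters called higher or lower with the SPINK1 virus in JHOC5, in 5 equal parts by signal. Right, median log2 change (SPINK1 minus IL-6 virus) of the same clusters on JHOC9 arrays. In the brightest part the higher clusters have a median of 0.22 in JHOC9, and the lower and uncalled ones 0.02 and 0.04.

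The test of the difference between the lines called 1453 clusters (2.22%), of which 305 (0.465%) had a positive and 1148 (1.75%) a negative difference, JHOC5 minus JHOC9, and 9301 (14.2%) had an unadjusted p under 0.05. Of the 2109 clusters lower in JHOC5, 1023 passed it with a negative difference, or 48.5%. Of the 1805 higher in JHOC5, 221 passed it with a positive difference, or 12.2%. The tested difference holds the JHOC5 change that chose these clusters, which favours those directions, so both shares are a description. For the lower clusters, the median SPINK1 minus IL-6 change was -0.50 (log2) in JHOC5, with a JHOC9 median of -0.0026. For the higher ones it was 0.41 in JHOC5, with a JHOC9 median of 0.15. The 1453 became 911 with the replicate block (140 positive, 771 negative) and 721 with the compared groups alone (120 positive, 601 negative). They became 921 and 940 without JHOC5 SPINK1 replicates d and e, 848 without JHOC5 IL-6 replicate c, and 907 without JHOC9 SPINK1 replicate b. Array weights gave 6659 positive and 4020 negative differences, which turns the balance. Single arrays led those weights, with 6.46 for JHOC9 SPINK1 replicate b and 3.28 for JHOC5 IL-6 replicate b. With each array centred on its median, 117 were positive and 1238 negative. Line and serum differ together and cannot be told apart here. The replicate letters compared also differ between the lines, and how far each virus lowered its target in each line was not analysed.

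**Figure D5:**
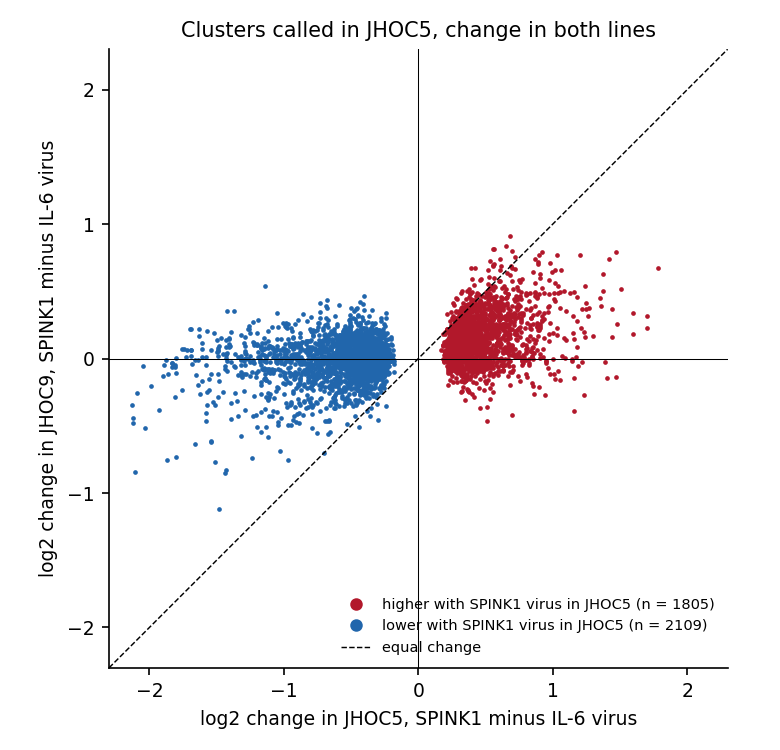
Log2 change (SPINK1 minus IL-6 virus) in JHOC9 against that in JHOC5, for the clusters called in JHOC5. Red points are higher and blue points lower in JHOC5, and the dashed line marks an equal change in both lines. The blue points spread around a JHOC9 change of 0, and most red points lie above it.

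Among the same 1453 clusters, the most negative difference was in TC02002217.hg.1. In JHOC5 its log2 signals were 6.75, 6.14 and 6.02 on SPINK1 arrays c, d and e, against 8.29, 8.22 and 8.53 on IL-6 arrays a, b and c. In JHOC9 they were 5.95, 6.09 and 5.87 on the SPINK1 arrays, against 6.21, 6.11 and 5.75 on the IL-6 arrays. The groups stood apart in JHOC5 and overlapped in JHOC9. The SPINK1 minus IL-6 difference was -2.05 for JHOC5 and -0.05 for JHOC9 on the log2 scale, and their difference of -1.99 ± 0.23 (SE) had a limma adjusted p of 6.69e-05. With the NT virus it had a mean log2 signal of 8.17 ± 0.16 in JHOC5 and 6.42 ± 0.20 in JHOC9 (SD, n = 5 each).

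Among the differences that passed, the most positive was in TC17001332.hg.1, a dim cluster. Its log2 signals in JHOC5 were 4.53, 4.55 and 4.11 on the SPINK1 arrays, against 3.23, 3.24 and 3.77 on the IL-6 arrays. In JHOC9 they were 4.17, 3.93 and 3.42 on the SPINK1 arrays, against 4.11, 5.01 and 4.93 on the IL-6 arrays. The difference between the lines was 1.83 ± 0.47 (SE), with a limma adjusted p of 0.0442. Within a line it passed in neither, with limma adjusted p of 0.101 in JHOC5 and 0.272 in JHOC9. The difference between the lines passed in 13 of 35 settings. The replicate block gave 1.26 and the highest limma adjusted p of these settings, 0.258, and the filter on dim clusters removed the cluster.

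The NT arrays also show how the called clusters differ between the lines at baseline. In the brightest part the median log2 difference of NT means, JHOC5 minus JHOC9, was -0.03 for the higher, 0.12 for the lower and -0.05 for the clusters not called. In the second brightest part it was 0.15, 0.36 and -0.08 in the same order. The lower clusters had the highest median in both. In the 277 clusters at least 2-fold lower the median was 0.59 (quartiles 0.17 and 1.14), against -0.05 over all clusters. In the 70 at least 2-fold higher it was 0.30, with wide quartiles of -0.97 and 1.44. In the third brightest part both lists were above JHOC9, at 0.31 for the higher and 0.51 for the lower clusters, against -0.08 for those not called. Dim signals understate a change, so choosing clusters by their JHOC5 change favours those with a higher level in JHOC5. The values over all clusters are also not matched for signal. These baseline levels move with the lists, and their part in the difference between the lines was not tested.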

How the data were processed

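Per the labels, 200 ng of total RNA from each sample went onto a Human Transcriptome Array 2.0. The submitters' processing notes name RMA with no version. The genome build and the annotation used are likewise not given in the sources used here. In the deposited matrix, log2 values have each cluster's median across all 22 arrays subtracted, within 2.06e-06. A second deposited file holds the same values with linear intensity values per cluster, called raw in its header. Log2 signals were rebuilt from both files. RMA brings arrays to a common distribution, so an overall shift in RNA content would not appear.

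All 22 arrays, grouped by title, entered a limma 3.58.1 model (R 4.3.3) with 6 group means. Each contrast had a two-sided eBayes test, adjusted by Benjamini-Hochberg over 65526 clusters at 0.05, with 16 residual and 4.22 prior degrees of freedom. Both NT groups therefore shape the SE. Named clusters were the 2 largest falls and rises with adjusted p under 0.05 and groups that do not overlap, the fall and the rise called in both lines whose smaller change was largest, and the largest called line difference in each direction. Arrays, lists and rules were chosen with earlier results of these data known. Among the 65526 clusters, 1034 hold the values of an earlier one to within 1e-05 and were kept. The fit was tested on simulated data. Alternatives covered the replicate block, the arrays in the fit, a dim filter, normalization, the input table, the variance model, array weights, thresholds, repeated clusters and each array left out. Figures used matplotlib 3.10.9 under Python 3.11.15.

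The replicate letters do not pair the groups compared, which share letter c alone. An effect of the letter is thus not separated from the virus in the main fit. Deviations from the group mean of the c arrays of SPINK1 and IL-6 in JHOC5 correlated at 0.401. Same-lettered SPINK1 and NT arrays correlated at 0.267, 0.064 and 0.369 for c, d and e, and IL-6 and NT arrays at 0.524, -0.002 and 0.401 for a, b and c. In JHOC9, SPINK1 and NT arrays correlated at 0.432, 0.322 and 0.203 for a, b and c, IL-6 and NT arrays at 0.314, -0.042 and 0.483 for b, d and e, and the b arrays of SPINK1 and IL-6 at 0.152. Most of these correlations were positive, and their size varied with the letter. Among knockdown and NT arrays, only SPINK1 and NT in JHOC9 were over 0.1 for each letter. Pairs of SPINK1 and IL-6 arrays are too few, and no correlations of different letters are given here, so pairing by letter is not settled. The main fit did not treat the samples as paired, and counts with the replicate letter as a block are given beside it.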

Additional observations from a re-analysis of the deposited data

Results flagged for a closer look

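The SPINK1 minus IL-6 change differed between JHOC5 and JHOC9 by the interaction test for 1453 clusters. Among the named clusters, the difference (JHOC5 minus JHOC9) passed for TC04001436.hg.1 at -1.79, TC04002654.hg.1 at -1.68, TC12001705.hg.1 at 1.11, TC05002316.hg.1 at 1.47, TC02002217.hg.1 at -1.99 and TC17001332.hg.1 at 1.83 on the log2 scale. The difference of TC17001332.hg.1 passed in 13 of 35 settings, and that of TC05002316.hg.1 missed with the compared groups alone (limma adjusted p 0.056). TC12001705.hg.1 had JHOC9 log2 signals of 9.32, 9.33 and 9.05 with the SPINK1 virus, against 8.41, 8.69 and 8.59 with the IL-6 virus, so it was higher in both lines and by more in JHOC5.

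One NT array of JHOC5 stood apart from its group in a named cluster. TC05001590.hg.1 had a log2 signal of 7.35 on NT replicate e, above the other NT arrays, which lay between 7.04 and 7.13. Chance gives such a gap in about 1 in 20 groups, and 16 sets of NT arrays (8 clusters in 2 lines) were examined. NT arrays are not in the contrast.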

How the results depend on the processing

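The JHOC5 count of 3914 was 1966 with the compared groups alone, 2386 at an adjusted p under 0.01, 1267 at 1.5-fold and 8118 with array weights, and 2727 to 4026 without single arrays. With the replicate block it was 3192, with 1197 higher and 1995 lower. The JHOC9 count of 412 was 88 with the replicate block, 0 with the compared groups alone by limma (6623 at an unadjusted p under 0.05), 42 with one line alone, 97 at 0.01, 82 at 1.5-fold, 7489 with array weights (3061 higher, 4428 lower) and 101 to 516 without single arrays. Centring arrays on their medians gave 337 higher and 21 lower there. The 1453 line differences were 911 with the replicate block, 721 with the compared groups alone, 655 at 0.01, 933 at 1.5-fold, 10679 with array weights and 848 to 2041 without single arrays. They were not computed with one line alone. The 193 shared calls were 59 with the replicate block, 0 with the compared groups alone, 33 with separate fits, 61 at 0.01, 32 at 1.5-fold, 1005 with array weights and 60 to 205 without single arrays. Centring gave 121 higher and 9 lower. The block moved the JHOC9, line and shared counts by over 1.5 times and kept the calls of the 7 named clusters called in JHOC5.

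The median SPINK1 minus NT change over the lower clusters was -0.62 with the compared groups alone, -0.30 with array weights, -0.57 at 0.01, -0.81 at 1.5-fold, -0.62 without both c arrays (chosen after seeing the data) and -0.55 to -0.43 without single arrays. Over the higher clusters at 1.5-fold it was 0.42, and the IL-6 minus NT median -0.35. Without single arrays the higher clusters gave 0.23 to 0.31 and -0.22 to -0.14, and the lower ones' IL-6 median 0.02 to 0.11. TC17001332.hg.1 gained a JHOC5 call with the compared groups alone, array weights or NT replicate b of JHOC5 left out, and its JHOC5 change was 0.54 with the replicate block (limma adjusted p 0.519). The causes were not tested. Dim clusters limit what could be called.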

Other observations

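Calls were spread over the genome as far as the cluster IDs show it. The characters after TC give the chromosome in the array maker's naming. Over the 22 numbered codes, between 1.57% and 3.57% of clusters were higher and between 1.13% and 4.60% lower with the SPINK1 virus in JHOC5. Code 13 had the lowest share of higher clusters, 27 of 1715, and code 21 the lowest share of lower ones, 12 of 1063. Code 1 had 186 higher and 282 lower of 6342 clusters, and code 3 had 120 higher and 109 lower of 3365. In 17 of the 22 codes more clusters were lower than higher, and the median change of a code lay between 0.02 and 0.03 on the log2 scale, as over all clusters. Codes also differed in median signal, 3.95 for code 13, 4.37 for code 21 and 4.98 for code 1, and the share called moves with signal. This grouping was chosen with earlier results known and has no test.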
